A study of Mus musculus with 6 samples.

Results

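The 45 genes described here are interferon-stimulated effectors and the receptors, kinases and transcription factors that signal to them. They were taken by gene name from the 51912 genes of a sequencing table of B16F10, a pigmented mouse melanoma cell line. The selection was made with earlier results of these data known. Shares set beside those of all genes therefore describe the members and do not test them. Genes of the OAS family, nucleic acid sensors, the ISG15 system and major histocompatibility class I were left out of this selection, and each of the 45 names matched 1 row of the table. Total RNA was profiled in 3 libraries of wild-type B16F10 (WT, replicates 1, 2 and 3) and 3 libraries of B16F10 with the genotype ANXA10-/- (A10KO, replicates 1, 13 and 14). Annexin A10 belongs to the annexins, a family of membrane-binding proteins, and the series concerns its place in melanoma metastasis. The labels name no interferon or other treatment for either group. They do not say whether the replicate numbers are clones, separate cultures or repeated preparations, so p-values reflect the variation among libraries alone, and this may be technical. Values are given below in the replicate order 1, 2 and 3 for WT and 1, 13 and 14 for A10KO.

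The knocked-out gene gave no check of the labels, because Anxa10 (chromosome 8, 62057042 to 62123150 on GRCm38) was listed at 0 TPM in all 6 libraries, WT included. TPM is an abundance scaled for transcript length and for the total of the library, so sequencing depth cannot be read from it. A library had 11889 to 12236 genes at 1 TPM or more. All 10 melanoma markers were measured, with sums from 9112 to 10210 TPM in WT and from 9578 to 11526 in A10KO. Of 15 leukocyte markers, 11 were below 1 TPM in every library, and Cd3e, Cd3d, Cd8a, Adgre1 and Tyrobp were listed at 0 in all 6. A listed 0 in this table need not mean that a gene was silent, because mt-Atp6, which every cell uses, was also at 0 in all 6 libraries, and mt-Nd4l in 5. The leukocyte sums were 3.95 to 7.45 TPM in WT and 2.70 to 4.31 in A10KO. Fibroblast and endothelial markers summed to 10.9 to 19.8 TPM in WT and 20.5 to 40.7 in A10KO, mostly Tek, and 9 of these 12 markers were below 1 TPM in every library. In bulk RNA, fewer cells of a type and less RNA per cell cannot be told apart.

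Type I interferons bind a receptor made of IFNAR1 and IFNAR2, whose kinases TYK2 and JAK1 phosphorylate STAT proteins. STAT2 joins another STAT protein and IRF9 in a complex that binds the interferon-stimulated response element (ISRE) in promoters and turns on a large set of antiviral genes. Interferon gamma acts through JAK1 and a STAT dimer at gamma-activated sequences (GAS), and Irf1 and the interferon-inducible GTPases are among its known targets. Tumour cells can hold a low level of these genes without added interferon.

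RefSeq promoter windows (GRCm38.p6, 250 bases before to 50 bases after a gene's start) were matched by symbol to 37 of the 45 members. The other 8 are Ifi27, Mx1, Mx2, Parp9, Parp10, Parp14, Rtp4 and Tor3a. Both strands were searched for an ISRE core, GAAANNGAAA, and for a GAS, TTCNNNGAA. The stretches below are shown because they carry the ISRE core nearest to the start of members whose levels are described below. They are examples and not all such stretches. Each is written 5′ to 3′ on the strand of the gene, with that core in capitals and up to 20 bases on each side.
Bst2: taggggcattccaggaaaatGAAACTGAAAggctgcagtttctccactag
Rsad2: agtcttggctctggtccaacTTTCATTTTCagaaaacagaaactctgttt
Igtp: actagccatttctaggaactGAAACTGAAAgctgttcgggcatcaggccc
Ifit1: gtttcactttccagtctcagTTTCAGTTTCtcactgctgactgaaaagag
Ifit3: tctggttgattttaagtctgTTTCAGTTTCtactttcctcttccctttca
Stat2: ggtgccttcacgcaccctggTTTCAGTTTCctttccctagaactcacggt

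These stretches lie at chr8:71537567-71537616 (minus strand, Bst2), chr12:26456543-26456592 (minus, Rsad2), chr11:58199502-58199551 (plus, Igtp), chr19:34640784-34640833 (plus, Ifit1), chr19:34583387-34583436 (plus, Ifit3) and chr10:128270256-128270305 (plus, Stat2). None of the 6 overlaps an exon of the GENCODE M21 annotation. Of the stretches not shown, those of Gbp2, Gbp3, Ifitm2 and Irgm1 overlap an exon of their own gene, and those of Gbp7 and Ifit3b overlap none. Where the capitals read TTTC, the core runs on the opposite strand to the gene. The stretches of Bst2 and Ifit1 each hold 2 cores, and only the core nearest to the start is in capitals. Ifit3b holds the same 50 bases as Ifit3, at chr19:34607783-34607832. Counted from the start of the gene, the last base of the core was at -25 in Igtp, -76 in Ifit1, -111 in Rsad2, -113 in Ifit3, -115 in Bst2 and -213 in Stat2.

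An ISRE core was found in 16 of the 37 members with a window (43.2%), against 3.99% of 27025 genes. Counted by window, it was in 16 of 51 member windows, against 3.44% of all 32851 windows. A GAS was found in 13 of the 37 members (35.1%), against 9.55% of genes, and in 13 of the 51 member windows, against 8.30% of windows. Bst2, Eif2ak2, Gbp7, Ifitm3, Igtp and Shisa5 held both motifs, and in 3 of them, Bst2, Ifitm3 and Shisa5, a match of one shared bases with a match of the other. A match describes letters in this window and is not evidence of a bound site.

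Members of the interferon response had lower mean levels in A10KO than in WT, but none passed the adjusted threshold. The mean TPM was lower in A10KO for 42 of the 45 (93.3%), against 48.2% of the 23617 genes above 0 in some library. The 3 WT libraries all stood above the 3 A10KO libraries for 27 of the 45, against 7.19% of those genes, and the opposite was seen for 0, against 4.54%. Of the 45, 38 reached 1 TPM in at least 3 libraries and entered the test. The other 7 are Ifitm1, Mx1, Gbp2, Gbp7, Parp14, Ifi44 and Sp100, of which Gbp2, Gbp7, Parp14 and Sp100 had groups that did not overlap, with A10KO lower. Gbp3 and Igtp entered only through their WT libraries, since both were below 1 TPM in every A10KO library.

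At a limma adjusted p under 0.05 (Benjamini-Hochberg over 12068 genes), 0 of the 38 tested members were called, against 0.0414% of all genes tested in either direction and 0.0249% lower. The smallest adjusted p of a member was 0.116. At an unadjusted p under 0.05, 22 members (57.9%) were lower in A10KO, against 6.27% of all genes, and 0 were higher, against 2.56%. Groups did not overlap for 23 members (60.5%) with A10KO lower, against 11.5% of all genes, and for 0 with A10KO higher, against 5.61%. The remaining 15 overlapped. The log2 change was below 0 for 35 members (92.1%), against 56.5% of all genes, and the mean TPM was at least 2-fold lower for 15 (39.5%), against 2.58%. The median log2 change, A10KO minus WT on log2(TPM + 1), was -0.77 over the tested members and -0.04 over all genes tested. Without Gbp3 and Igtp the median was -0.71 over 36 members, 21 of them with groups apart and 20 lower at an unadjusted p under 0.05. Genes held to the same condition had groups apart with A10KO lower in 11.2%. Without WT replicate 3 the count at an unadjusted p under 0.05 was 13, with 3.72% of all genes in place of 6.27%. Without A10KO replicate 13, 3 members, Bst2, Ifi27 and Lgals3bp, passed the adjusted threshold, among 11879 genes tested. With the tested genes kept and that replicate left out, 0 passed. With array quality weights 1 member, Bst2, passed it (adjusted p = 0.0322), and under the other 20 of 22 alternatives 0 did.

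**Figure D1:**
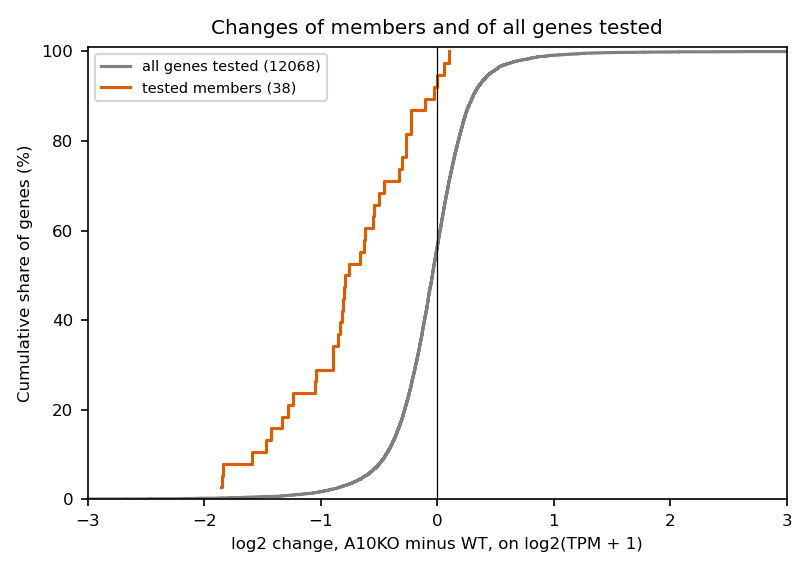
Cumulative share of genes (%) against the log2 change, A10KO minus WT on log2(TPM + 1), for the 38 tested members and all 12068 genes tested. The members' curve lies to the left, with a median of -0.77 against -0.04, and ends at 0.10.

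**Figure D2:**
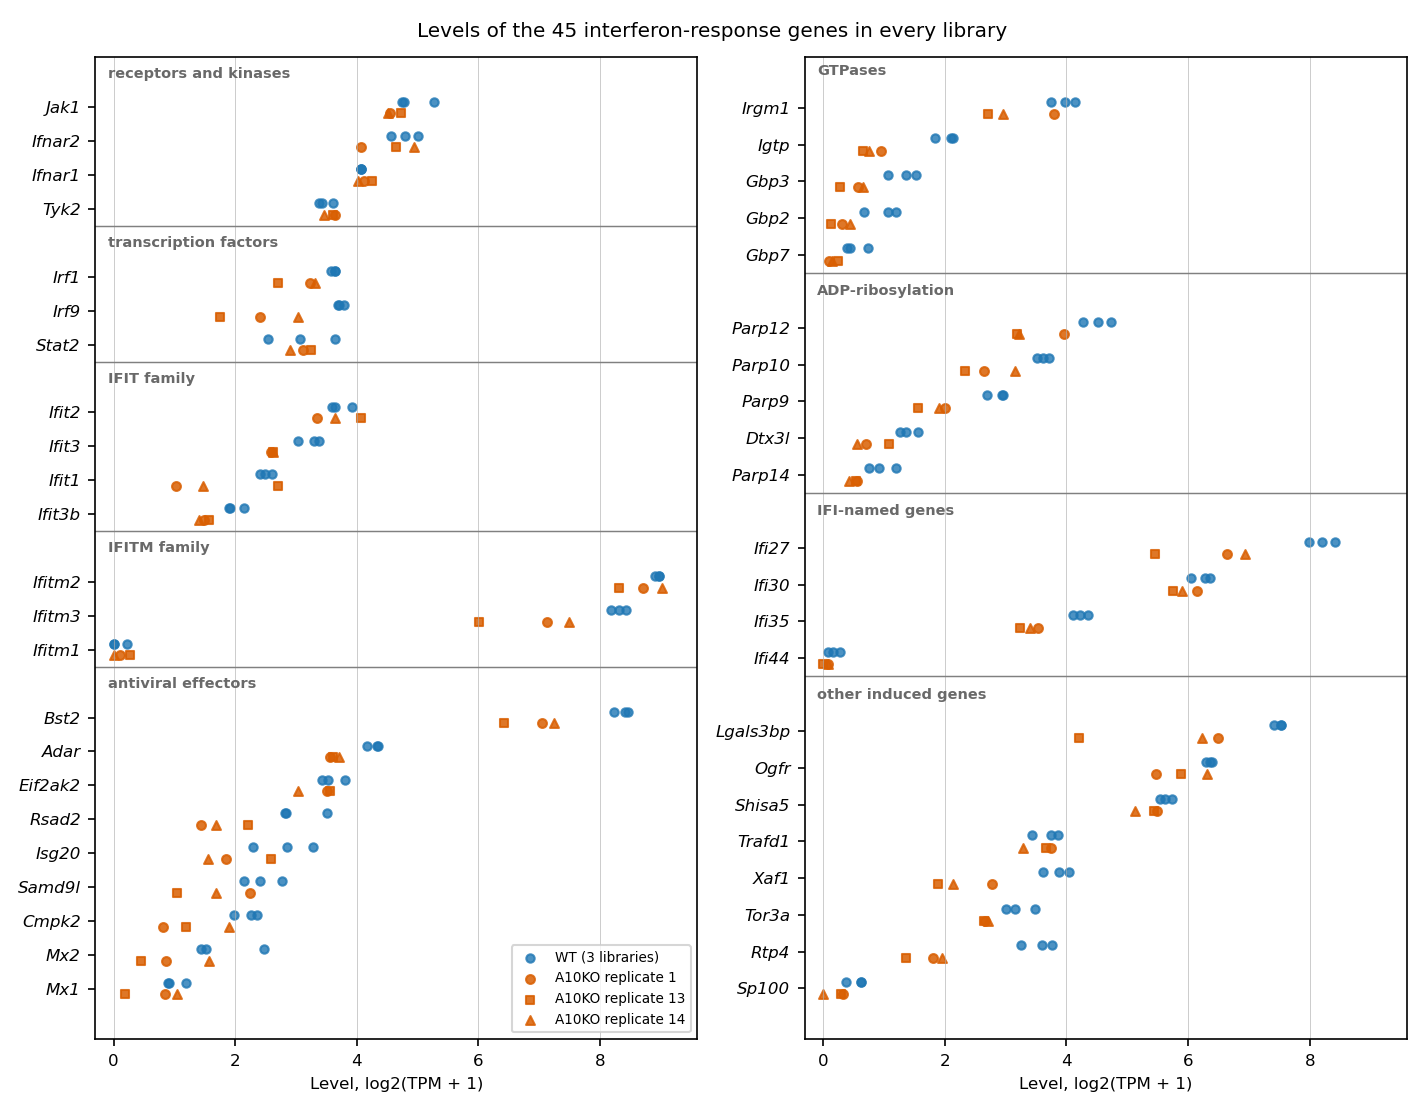
Level of each of the 45 members in every library, log2(TPM + 1), by role. Blue circles are the 3 WT libraries and orange symbols the 3 A10KO libraries, with A10KO replicate 13 as squares. Ifitm2, Bst2, Ifitm3, Ifi27 and Lgals3bp stand far to the right, and the receptors and kinases show little separation.

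The groups overlapped for both receptor chains and for 1 of the 2 kinases. Ifnar1, which binds Tyk2, was at 15.8, 15.7 and 15.8 TPM in WT and 16.3, 18.03 and 15.3 in A10KO. Its groups overlapped, with a log2 change of 0.06 (SE 0.14, limma adjusted p = 0.919). Ifnar2, which binds Jak1, was at 26.6, 31.0 and 22.5 TPM in WT and 15.8, 24.1 and 29.6 in A10KO. A10KO replicate 1 was the lowest and WT replicate 2 the highest of these, and the groups overlapped (log2 change -0.23, SE 0.24, limma adjusted p = 0.801).

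The kinase Jak1 was at 25.8, 37.5 and 26.2 TPM in WT and 22.5, 25.5 and 21.9 in A10KO. Its groups did not overlap, by a small margin between A10KO replicate 13 and WT replicate 1, and the log2 change was -0.33 (SE 0.18, limma adjusted p = 0.65). Tyk2 was at 9.38, 11.2 and 9.79 TPM in WT and 11.4, 11.2 and 9.97 in A10KO. Its groups overlapped, and with a log2 change of 0.10 (SE 0.16, limma adjusted p = 0.88) it was the highest of the 38. Over these 4 genes the median log2 change was -0.08. An unadjusted p under 0.05 was found for 0 of the 4, against 6.27% lower and 2.56% higher over all genes tested.

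Among the transcription factors, Irf9 was the lowest relative to WT. Irf9, the DNA-binding partner of the STAT complex (chromosome 14, 55603571 to 55610030), was at 12.0, 12.8 and 11.9 TPM in WT and 4.32, 2.37 and 7.16 in A10KO. The groups did not overlap, and all 3 A10KO libraries lay apart from one another, with replicate 13 the lowest. Its means were 12.2 ± 0.522 and 4.62 ± 2.41 TPM (SD, n = 3 each; log2 change -1.33, SE 0.31, limma adjusted p = 0.297). Stat2, its partner, was at 4.81, 11.5 and 7.41 TPM in WT and 7.66, 8.52 and 6.48 in A10KO. The A10KO values all lay between the lowest and the highest WT value, and the log2 change was 0.00 (SE 0.29, limma adjusted p = 0.997), which turned to -0.27 without WT replicate 1 and to 0.28 without WT replicate 2. Irf1, a factor induced strongly by interferon gamma, was at 11.5, 10.9 and 11.5 TPM in WT and 8.41, 5.48 and 8.93 in A10KO. The groups did not overlap, with a log2 change of -0.54 (SE 0.21, limma adjusted p = 0.522).

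The IFIT genes, whose proteins bind viral RNA or hold back its translation, lie near one another on chromosome 19. Among the members the order is Ifit2, Ifit3, Ifit3b and Ifit1, with 7111, 19238 and 27469 bases between one and the next. Their patterns over the libraries differed. Ifit3 was at 7.20, 8.86 and 9.42 TPM in WT and 5.02, 5.13 and 5.18 in A10KO. Ifit3b was at 2.77, 2.72 and 3.41 TPM in WT and 1.79, 1.95 and 1.66 in A10KO. For both, every A10KO library was below every WT library and the A10KO libraries were close together. Their log2 changes were -0.63 (SE 0.18, limma adjusted p = 0.398) and -0.50 (SE 0.20, limma adjusted p = 0.541). Of all 50-base words in the transcripts of Ifit3, 51.2% also occurred in other genes, chiefly Ifit3b, so the split of reads between this pair is uncertain.

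Ifit1 was at 4.59, 4.29 and 5.05 TPM in WT and 1.03, 5.53 and 1.76 in A10KO. A10KO replicates 1 and 14 were below every WT library, whereas replicate 13 was above every one (log2 change -0.76, SE 0.41, limma adjusted p = 0.647). Ifit2 was at 11.5, 14.2 and 11.1 TPM in WT and 9.18, 15.7 and 11.5 in A10KO. Its groups overlapped, A10KO replicate 13 was again the highest, and the log2 change was -0.03 (SE 0.22, limma adjusted p = 0.972), with a sign that turned under 9 of 22 alternatives. So Ifit2 and Ifit1, the outer 2 of these IFIT members, were highest in A10KO replicate 13, the library in which 20 of the 38 tested members had their lowest A10KO value.

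The IFITM genes encode small membrane proteins that hinder the entry of enveloped viruses. Ifitm3 (chromosome 7, 141009586 to 141010770) was at 287, 342 and 315 TPM in WT and 138, 63.7 and 178 in A10KO. Every A10KO library was below every WT library, and replicate 13 was the lowest. The means were 315 ± 27.2 and 127 ± 57.9 TPM (SD, n = 3 each; log2 change -1.43, SE 0.34, limma adjusted p = 0.297). Ifitm2, the most abundant of the 45, was at 500, 478 and 501 TPM in WT and 419, 318 and 516 in A10KO. Its groups overlapped because A10KO replicate 14 had the highest value of all 6 libraries (log2 change -0.27, SE 0.18, limma adjusted p = 0.72). Ifitm2 shared 48.5% of its 50-base words with other genes and overlaps exons of Gm45717 on the same strand, so its level is uncertain. Ifitm1, between them on the chromosome, was below 1 TPM in every library.

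Antiviral effectors include proteins that block virus release, alter nucleotides or degrade RNA. Bst2 (tetherin, which holds budding virus at the cell surface, chromosome 8, 71534255 to 71537456) was at 299, 353 and 339 TPM in WT and 131, 84.1 and 151 in A10KO. The lowest WT library was well above the highest A10KO library. The means were 330 ± 27.8 and 122 ± 34.1 TPM (SD, n = 3 each), a ratio of 2.71 (log2 change -1.47, SE 0.21, limma adjusted p = 0.125). That adjusted p was 0.0491 without A10KO replicate 13, or 0.0517 with the tested genes kept, and it ran from 0.0322 to 0.681 over the 22 alternatives.

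Rsad2 (viperin, which makes a nucleotide that ends RNA chains) and Cmpk2, a mitochondrial nucleotide kinase, lie head to head on chromosome 12, 12751 bases apart. Rsad2 was at 6.16, 10.4 and 6.06 TPM in WT and 1.70, 3.65 and 2.20 in A10KO. Its groups did not overlap, and A10KO replicate 1 was the lowest (log2 change -1.28, SE 0.29, limma adjusted p = 0.285). Cmpk2 was at 2.93, 4.10 and 3.77 TPM in WT and 0.76, 1.27 and 2.71 in A10KO. Here too replicate 1 was the lowest and the groups were apart (log2 change -0.90, SE 0.31, limma adjusted p = 0.483). In A10KO replicate 1, the median gene of chromosome 12 was itself at -0.40 against the mean of WT, which for Rsad2 compares with -1.62 and for Cmpk2 with -1.38 in that library.

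Adar, which edits double-stranded RNA, was at 16.99, 19.3 and 19.2 TPM in WT and 10.8, 11.2 and 12.1 in A10KO. The groups were apart and each was tight (log2 change -0.66, SE 0.15, limma adjusted p = 0.259). Exons of Chrnb2 on the opposite strand cover 16.8% of the exon bases of Adar, so reads there may be shared. Eif2ak2, the RNA-activated kinase PKR, was at 9.72, 13.04 and 10.5 TPM in WT and 10.3, 10.8 and 7.14 in A10KO, and its groups overlapped (log2 change -0.23, limma adjusted p = 0.783). The groups also overlapped for the exonuclease Isg20 (log2 change -0.80, limma adjusted p = 0.566), Samd9l (-0.79, adjusted p = 0.564) and Mx2 (-0.85, adjusted p = 0.577). Mx2, of a GTPase family, is annotated in GENCODE M21 as a polymorphic pseudogene. Of the 8 antiviral effectors tested, 4 had groups apart and an unadjusted p under 0.05, with a median log2 change of -0.83. Over all genes tested, 11.5% had groups apart with A10KO lower and 6.27% were lower at that p.

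The interferon-inducible GTPases act on the membranes around intracellular microbes. Igtp (chromosome 11, 58199556 to 58207591) was at 2.59, 3.31 and 3.41 TPM in WT and 0.94, 0.58 and 0.69 in A10KO. Its groups did not overlap (log2 change -1.24, SE 0.22, limma adjusted p = 0.189), and 11.8% of its 50-base words occurred in other genes, mainly Irgm2. Irgm1 was at 14.7, 12.5 and 16.7 TPM in WT and 12.9, 5.51 and 6.76 in A10KO. A10KO replicate 1 reached into the WT range, so its groups overlapped (log2 change -0.81, SE 0.29, limma adjusted p = 0.502).

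Guanylate-binding proteins are large GTPases of the same response, and Gbp7, Gbp3 and Gbp2 lie near one another on chromosome 3. Gbp3 was at 1.09, 1.58 and 1.89 TPM in WT and 0.49, 0.21 and 0.57 in A10KO (log2 change -0.82, SE 0.24, limma adjusted p = 0.423). Gbp2 was at 0.59, 1.29 and 1.10 TPM in WT and 0.24, 0.09 and 0.36 in A10KO. Gbp7 was at 0.31, 0.67 and 0.35 TPM in WT and 0.07, 0.18 and 0.11 in A10KO. The groups were apart for all 3 genes, at levels near or below 1 TPM where the precision is unknown.

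The genes of ADP-ribosylation were the role in which every tested member had groups apart. Over all genes tested, groups were apart with A10KO lower in 11.5%. Parp9 and Dtx3l, whose proteins form a pair that modifies ubiquitin and histones, overlap on opposite strands of chromosome 16, and reads from the shared exon bases cannot be assigned without a strand setting. Parp9 was at 5.49, 6.66 and 6.76 TPM in WT and 3.0, 1.96 and 2.74 in A10KO. Dtx3l was at 1.39, 1.95 and 1.58 TPM in WT and 0.62, 1.11 and 0.47 in A10KO. Each A10KO library was below each WT library for this pair, with log2 changes of -1.04 (SE 0.21, limma adjusted p = 0.215) and -0.62 (SE 0.24, limma adjusted p = 0.525).

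Parp12, a Golgi-associated ADP-ribosyltransferase, was at 18.2, 25.5 and 21.9 TPM in WT and 14.5, 8.09 and 8.35 in A10KO. A10KO replicate 1 was the highest of its group but still below WT (log2 change -1.05, SE 0.25, limma adjusted p = 0.297). Parp10, a mono-ADP-ribosyltransferase, was at 10.4, 12.1 and 11.2 TPM in WT and 5.25, 4.06 and 7.88 in A10KO. Its groups were apart as well (log2 change -0.90, SE 0.24, limma adjusted p = 0.339). Parp14 was not tested and was at 0.69, 1.30 and 0.88 TPM in WT and 0.47, 0.45 and 0.34 in A10KO. The median log2 change over the 4 tested was -0.97, the lowest of the 9 roles.

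Genes named for interferon induction ranged from Ifi27, with the lowest log2 change of the 38 tested, to Ifi30, whose groups overlapped. This rank depended on the pseudocount. With 0.1 and 0.5 in place of 1, Ifi27 was at -1.87 under both, and Rtp4 was lower, at -2.20 and -2.02. Ifi27, a small membrane protein (chromosome 12, 103434211 to 103440239), was at 254, 340 and 295 TPM in WT and 98.8, 43.1 and 122 in A10KO. All 3 A10KO libraries were far below WT and replicate 13 was the lowest. The means were 296 ± 43.1 and 87.8 ± 40.4 TPM (SD, n = 3 each), a ratio of 3.38 (log2 change -1.86, SE 0.35, limma adjusted p = 0.205). Without A10KO replicate 13 its log2 change was -1.42.

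Ifi35, an interferon-induced leucine zipper protein, was at 16.3, 19.4 and 17.8 TPM in WT and 10.5, 8.43 and 9.59 in A10KO. The groups were apart and the A10KO libraries close together (log2 change -0.84, SE 0.16, limma adjusted p = 0.205). Exons of Gm11626 cover 16.8% of the exon bases of Ifi35, so reads there may be shared. Ifi30, a lysosomal thiol reductase, was at 81.3, 65.0 and 76.6 TPM in WT and 69.5, 52.7 and 58.8 in A10KO. Its groups overlapped (log2 change -0.30, SE 0.15, limma adjusted p = 0.616), and Ifi44 was at most 0.21 TPM in any library.

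Of the remaining induced genes, Rtp4 had the smallest adjusted p of all members. Rtp4, a chaperone for membrane receptors (chromosome 16, 23520291 to 23614222), was at 12.6, 11.2 and 8.56 TPM in WT and 2.49, 1.56 and 2.86 in A10KO. The highest A10KO library was far below the lowest WT library. The means were 10.8 ± 2.03 and 2.30 ± 0.67 TPM (SD, n = 3 each), a ratio of 4.67 (log2 change -1.84, SE 0.24, limma adjusted p = 0.116). Of its 50-base words 11.6% occurred in other genes, mainly Gm45338.

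Xaf1, which binds an inhibitor of apoptosis, was at 11.3, 13.8 and 15.6 TPM in WT and 5.87, 2.69 and 3.37 in A10KO. The groups were apart (13.5 ± 2.14 and 3.98 ± 1.67 TPM, SD, n = 3 each; log2 change -1.59, SE 0.27, limma adjusted p = 0.187). Lgals3bp, a secreted glycoprotein that binds galectins (chromosome 11, 118392751 to 118402092), was at 169, 184 and 183 TPM in WT and 88.6, 17.4 and 74.4 in A10KO. The WT libraries were close together, while A10KO replicate 13 was far below the other A10KO libraries. Its SE was the largest of the 38 (log2 change -1.85, SE 0.54, limma adjusted p = 0.42), and without A10KO replicate 13 the log2 change was -1.13 and the adjusted p 0.0491, or 0.0517 with the tested genes kept.

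Tor3a, an ATPase of the endoplasmic reticulum, was at 7.05, 10.2 and 7.88 TPM in WT and 5.30, 5.22 and 5.51 in A10KO, with groups apart (log2 change -0.55, limma adjusted p = 0.491). Shisa5, a membrane protein linked to apoptosis, was also apart, at 45.3, 48.2 and 52.0 TPM in WT and 44.1, 42.4 and 33.8 in A10KO (log2 change -0.27, limma adjusted p = 0.641). Ogfr, the opioid growth factor receptor gene, was at 81.4, 77.4 and 82.8 TPM in WT and 43.6, 58.1 and 78.2 in A10KO. Its groups overlapped only through A10KO replicate 14 (log2 change -0.46, limma adjusted p = 0.568). In A10KO replicate 1, where Ogfr was lowest, the median gene of its chromosome 2 was at -0.44 against the mean of WT. Trafd1, a feedback regulator of innate signalling, had groups that overlapped (log2 change -0.11, limma adjusted p = 0.888), and Sp100 was at 0.29, 0.53 and 0.54 TPM in WT and 0.25, 0.22 and 0 in A10KO.

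**Figure D3:**
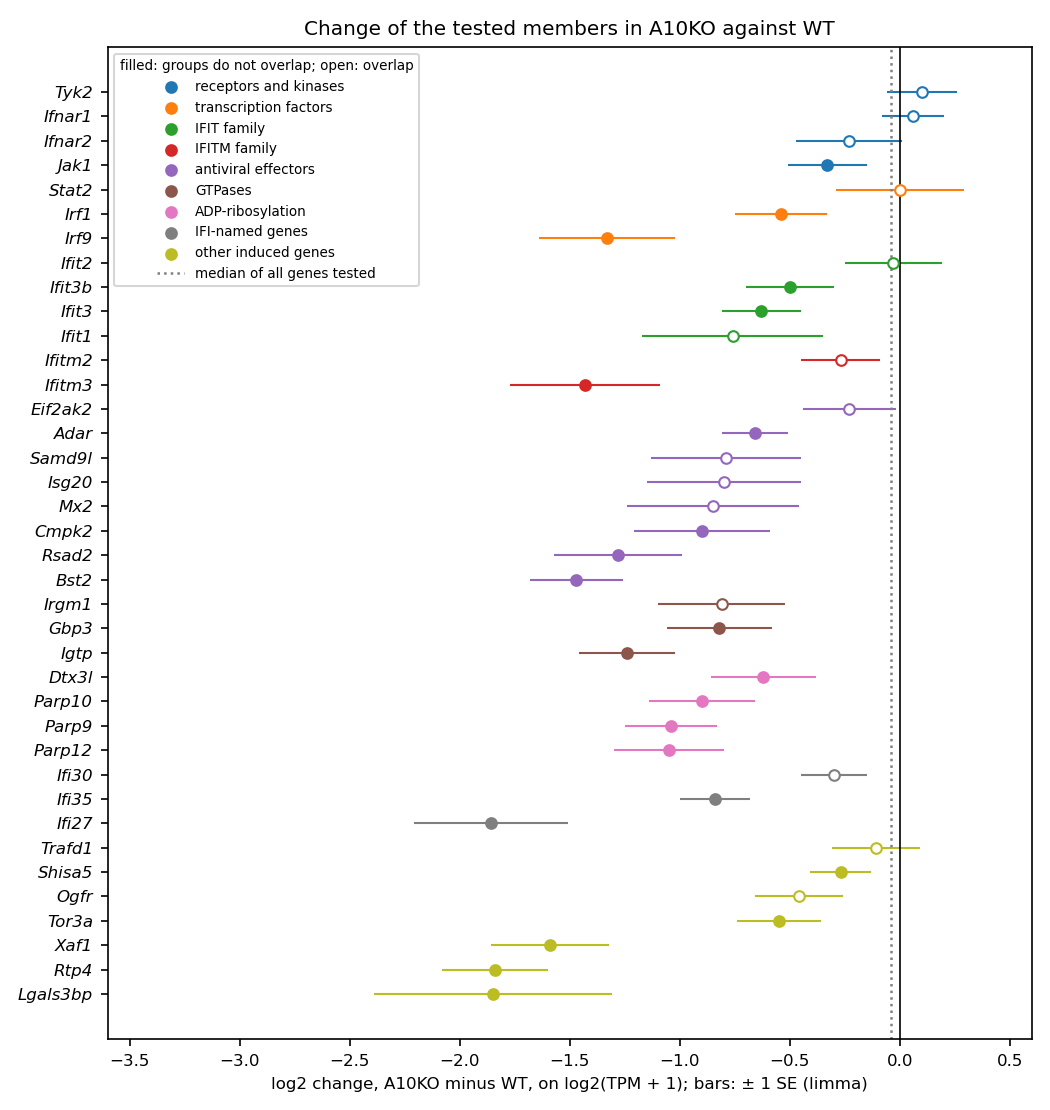
Log2 change, A10KO minus WT on log2(TPM + 1), of the 38 tested members by role, with bars of 1 SE from limma. Filled points have groups that do not overlap, and the dotted line is the median of all genes tested, -0.04. Ifi27, Lgals3bp, Rtp4 and Xaf1 lie farthest to the left, and Ifnar1, Tyk2 and Stat2 lie at or right of 0.

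The 3 A10KO libraries shared the direction but not the size of the difference. Against the mean of WT, 34, 33 and 36 of the 38 tested members were below 0 in A10KO replicates 1, 13 and 14, with medians of -0.71, -0.76 and -0.59. The same medians over all genes tested were -0.12, 0.02 and -0.03. Below every WT library stood 30, 29 and 31 of the 38, against 47.4%, 36.7% and 34.5% of all genes tested. Replicate 13 was the lowest A10KO library for 20 members, against 8 for replicate 1 and 10 for replicate 14. The gap was widest for Lgals3bp, at -3.29 in replicate 13 against -1.0 and -1.25, and Ifi27 was also lowest there, at -2.74 against -1.57 and -1.27. Ifit1 went the other way, at 0.21 in replicate 13 against -1.47 and -1.03. For Ifit3, Adar and Tor3a the 3 libraries nearly coincided.

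Summed over all 45, the level was 2011, 2250.0 and 2157 TPM in WT and 1243, 889 and 1420.0 in A10KO. Ifitm2, Bst2, Ifitm3, Ifi27 and Lgals3bp made up 75.1%, 75.4% and 75.7% of that sum in WT and 70.4%, 59.2% and 73.3% in A10KO. The other 40 members summed to 501, 554 and 524 TPM in WT and to 368, 362 and 380 in A10KO. The low sum of replicate 13 therefore lay in the 5 most abundant genes, while the sum of the other 40 was alike in the A10KO libraries. A sum is weighted towards abundant genes. Counted by gene, replicate 13 was the lowest A10KO library for 20 of the 38 tested members, so its low values were not confined to those 5. Among WT libraries, replicate 2 was the highest for 23 of the 38 tested members, replicate 3 for 12 and replicate 1 for 3. The same was not counted over all genes, so this may not be particular to the members. WT replicate 2 also had more genes at 1 TPM or more (12236) than WT replicates 1 and 3 (11903 and 11940).

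Mitochondrially encoded transcripts took 6.56%, 6.48% and 6.32% of the total in WT and 7.93%, 14.7% and 7.37% in A10KO, so replicate 13 stood apart there as well. With those transcripts removed and the libraries rescaled, the members' median was -0.74 and 21 were lower at an unadjusted p under 0.05, against 4.42% of all genes. Without replicate 13 the median was -0.64 and 23 were, against 7.94%. Immediate early genes, which respond quickly to the handling of cells, had a median log2 change of -0.46 over 13 tested. Groups were apart with A10KO lower in 11.5% of all genes tested and in 4 of these 13 immediate early genes. Their part in the members' difference was not tested, and neither was that of the leukocyte markers, of which Cd68 (named after its values were seen) had means of 3.97 ± 1.35 TPM (WT) and 1.01 ± 0.24 TPM (A10KO; SD, n = 3 each).

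**Figure D4:**
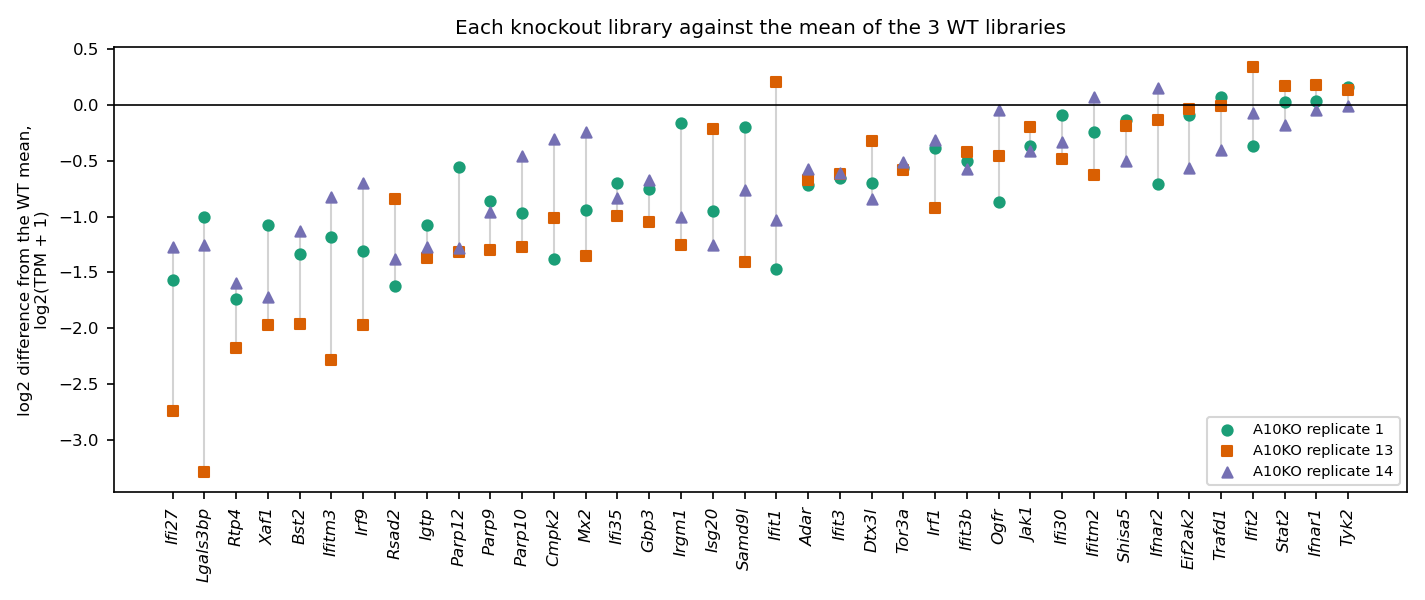
Difference of each A10KO library from the mean of the 3 WT libraries, log2(TPM + 1), for the 38 tested members in order of their mean difference. Green circles, orange squares and purple triangles are A10KO replicates 1, 13 and 14. Replicate 13 is far below the others for Lgals3bp (-3.29) and Ifi27 (-2.74) and above 0 for Ifit1 (0.21) and Ifit2 (0.34).

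The order of members with and without an ISRE core in the promoter window turned with 2 genes. The 14 tested members with a core had a median log2 change of -0.70. Of these 14, 8 had groups apart with A10KO lower, against 11.5% of all genes tested. Without Gbp3 and Igtp, which entered the test only through WT, the median of the remaining 12 was -0.56. Of these 12, 6 had groups apart, against 11.2% of all genes with at least 1 TPM in some A10KO library. Of 18 tested members without a core, 10 had groups apart, against 11.5% of all genes tested, and the median of the 18 was -0.64. Lgals3bp, Xaf1 and Irf9 were the lowest without a core, at -1.85, -1.59 and -1.33, and Bst2, Ifitm3 and Rsad2 the lowest with one, at -1.47, -1.43 and -1.28. Stat2, whose core is shown above, was at 0.00. The 6 tested members with no window had a median of -0.97. These medians describe the letters of short windows, and no test was made between them.

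**Figure D5:**
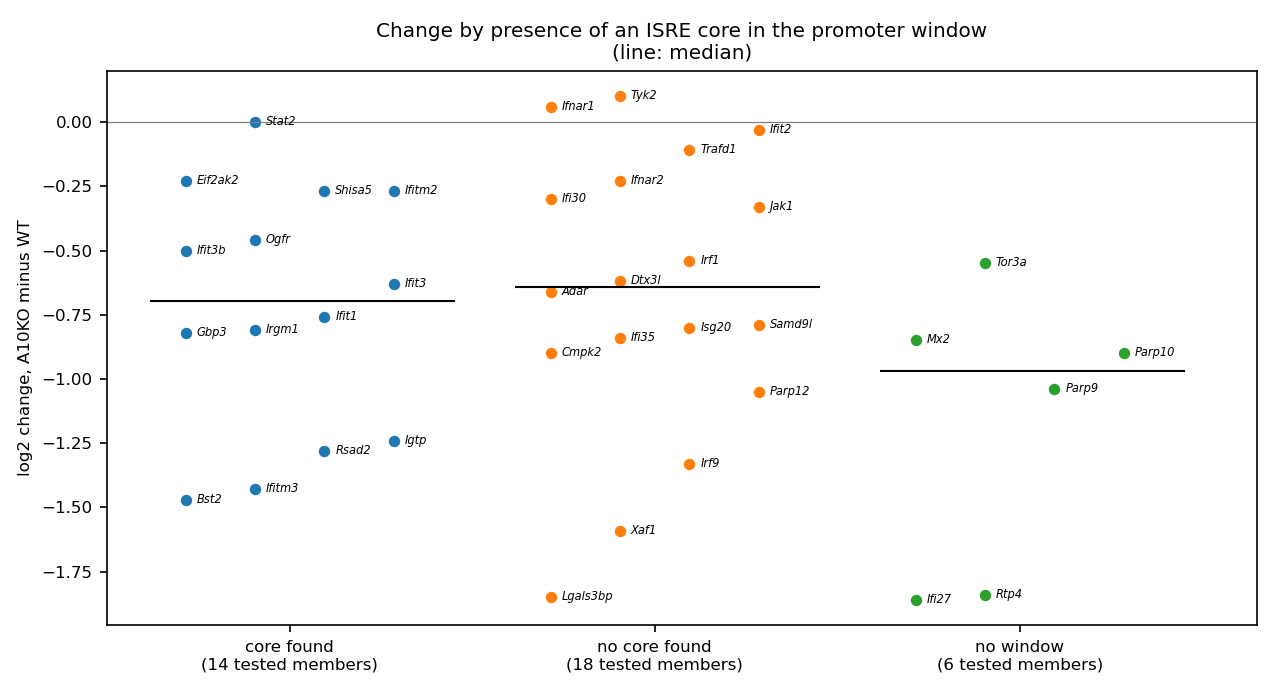
Log2 change, A10KO minus WT on log2(TPM + 1), of the 38 tested members by whether an ISRE core was found in the promoter window, not found, or no window was matched. Horizontal lines are medians of -0.70, -0.64 and -0.97. Without Gbp3 and Igtp the first is -0.56, so the order of the first and second classes rests on them.

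Other genes of the pathway were read from lists chosen by function, also with earlier results of these data known. Their counts and medians are thus descriptions and not independent support. Interferon genes themselves were at or close to 0. Of 21 listed, 0 were tested and 20 were below 1 TPM in every library. Ifnb1, interferon beta, named outside the rule for its role, was listed at 0 in 5 libraries and at 0.09 TPM in A10KO replicate 1. Ifnz had the highest mean, at 0.55, 1.06 and 1.0 TPM in WT and 0.76, 0.45 and 0.45 in A10KO, and Ifne was at 0 except for 0.72 TPM in A10KO replicate 13. Depth is unknown and mt-Atp6 was also listed at 0, so these values of 0 do not show absence.

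Of 6 other receptor and kinase genes, all tested, 0 were called. At an unadjusted p under 0.05 there were 2 higher and 1 lower, against 2.56% and 6.27% of all genes tested. Il10rb, a receptor chain used by interferon lambda, was at 32.1, 32.6 and 34.3 TPM in WT and 40.5, 45.7 and 41.1 in A10KO, with every A10KO library above every WT library (log2 change 0.35, SE 0.12, limma adjusted p = 0.48). Ifngr2, a chain of the interferon gamma receptor, overlapped, at 12.2 ± 0.922 and 13 ± 1.38 TPM (SD, n = 3 each; limma adjusted p = 0.894). The median log2 change of these 6 was 0.07. Ifnlr1, the other chain of the interferon lambda receptor and the 1 that was lower, was named after its values were seen. It was at 1.14, 1.60 and 1.39 TPM in WT and 0.86, 0.51 and 0.39 in A10KO, with groups apart (log2 change -0.59, SE 0.23, limma adjusted p = 0.53), and it entered the test only through WT.

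Of 12 negative regulators 11 were tested and 0 were called, with a median of 0.00. Ptpn11 and Ptpn1, phosphatases that act on this signalling, were at 110 ± 7.60 and 106 ± 14.1 TPM and at 38.2 ± 4.43 and 40.6 ± 11 TPM (SD, n = 3 each), and both overlapped. Usp18, named after its values were seen, removes ISG15 from proteins and restrains the receptor. It was at 11.1, 14.9 and 13.4 TPM in WT and 2.68, 0.45 and 1.45 in A10KO (log2 change -2.58, SE 0.34, limma adjusted p = 0.116). Among 13 other STAT and IRF genes 9 were tested and 0 called, with a median of -0.05, the same without 1 gene that entered only through WT. Irf3, which acts upstream of interferon production, was at 52.9 ± 1.98 and 43.6 ± 8.19 TPM, and Stat6, of the interleukin-4 pathway, at 43.1 ± 2.35 and 42.0 ± 2.77 TPM (SD, n = 3 each).

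Of 62 other interferon-stimulated genes 33 were tested and 1 was called, against 0.0414% of all genes tested, with a median of -0.81. Usp18 is counted both in this list and among the negative regulators. At an unadjusted p under 0.05, 20 were lower, against 6.27% of all genes. Groups were apart with A10KO lower for 22, against 11.5%. The called gene was Isg15, a ubiquitin-like protein, which fell from 53.7 ± 5.67 to 8.83 ± 2.68 TPM (SD, n = 3 each; log2 change -2.51, SE 0.23, limma adjusted p = 0.0207). B2m and H2-D1, of antigen presentation, had groups apart at 541 ± 45.6 and 338 ± 66.8 TPM and at 79.1 ± 7.15 and 42.6 ± 7.26 TPM (limma adjusted p = 0.323 and 0.189). Of the 33, 2 (Oasl2 and Trim34a, named after their values were seen) entered the test only through their WT libraries. Without them the median was -0.69, with 18 lower at an unadjusted p under 0.05 and 20 apart (11.2% of all genes held to the same condition). The same median over the 36 members that reached 1 TPM in some A10KO library was -0.71.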

How the data were processed

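The 3 WT and 3 A10KO libraries of B16F10 were made from Trizol-extracted, DNase-treated total RNA, per the labels' protocols. The tools fastp, HISAT and RSEM and the genome build GRCm38.p5 are named without role or version, per the submitters' processing notes. The strand setting is not given in the sources used here. The values deposited by the authors are TPM, as read from the values themselves, since they carry decimals and each library sums to between 969834 and 985045. The table is presented as raw counts. TPM keeps no depth, so no counting interval or detection limit is given. Tables of single libraries equalled the series table in 6 of 6 cases.

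The members and gene lists were chosen with earlier results of these data known. The 12068 of 51912 genes that reached 1 TPM in 3 or more libraries were fitted with limma 3.58.1 in R 4.3.3, with a mean-variance trend, on log2(TPM + 1). This scale understates the change of low genes. The two-sided moderated p-values were adjusted by Benjamini-Hochberg over all genes tested, with a threshold of 0.05. The script was also tested on simulated data. Values of every library were planned for members past the threshold, for those with a mean of at least 5 TPM, groups apart and a log2 change of at least 0.8 in size, for the most abundant of each role and for tested members above 0 with that mean. Values of further members were added for completeness. For genes outside the members the rule was up to 2 per list with the highest mean and any that was called. Ifnb1, Usp18, Ifnlr1, Oasl2, Trim34a, Tek, Cd68, mt-Atp6, mt-Nd4l and the leukocyte markers at 0 fall outside it and were named after their values were seen. Coordinates and exon overlaps are from GENCODE M21 on GRCm38, and promoter windows from RefSeq.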

Additional observations from a re-analysis of the deposited data

How the results depend on the processing

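The results were recomputed under 22 alternatives, 12 of which leave out 1 library. No paired analysis was possible because the groups share only replicate number 1. Of the 38 tested members, 33 kept the sign of their change in every alternative in which they were tested, and Ifnar1, Ifnar2, Stat2, Ifit2 and Trafd1 did not. The median change of the tested members was -0.94 and -0.86 with pseudocounts of 0.1 and 0.5, -0.63 with no filter, -0.64 with a filter of 5 TPM, -0.66 under quantile normalization, -0.65 with chromosome medians removed and -0.67 with array quality weights. Leaving out 1 library gave -0.78 to -0.58. The count of all genes called was 3 under quantile normalization, 25 with array quality weights and 1 to 20 when 1 library was left out. Members called numbered 1 with array quality weights and 0 to 3 when 1 library was left out. Members lower at an unadjusted p under 0.05 numbered 13 to 23 when 1 library was left out, against 3.03% to 9.33% of all genes. They numbered 27 with array quality weights, against 7.08%, and 25 of 45 with no filter, against 4.15%. Ifit2 turned to 0.0070 under median-of-ratios scaling, 0.0149 under quantile normalization, 0.0283 with mitochondrial transcripts removed, 0.0252 with chromosome medians removed and 0.0030 with array quality weights, and Stat2 to -0.0436 with chromosome medians removed. Leaving out 1 library gave -0.22 to 0.14 for Ifit2, -0.27 to 0.28 for Stat2 and -0.0008 to 0.11 for Ifnar1. The cause of these shifts was not tested. Depth is unknown and sets an unstated limit on members near 1 TPM.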
